A study of Homo sapiens with 30 samples.

Results

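The Frizzled family comprises 10 human genes, FZD1 to FZD10, and all 10 have an entry among the 58780 genes of the deposited count table. Members were taken by gene name, in all 15 groups. The family was selected on measured values: FZD5 had stood out in earlier work on these counts by its level in cells given dexamethasone after MS023, so FZD5 is described here without any p-value. FZD10 was almost silent, with at most 2 counts in a library, counts in only 3 of 30 libraries and 4 counts in all. It was not tested, which left 8 members with a test (FZD1, FZD2, FZD3, FZD4, FZD6, FZD7, FZD8 and FZD9).

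Frizzled proteins are receptors that cross the membrane several times and bind Wnt ligands through an extracellular cysteine-rich domain. With the co-receptors LRP5 and LRP6 they recruit Dishevelled proteins and stabilise β-catenin, which then enters the nucleus, while other Frizzled signals act through planar cell polarity or calcium. The membrane ligases RNF43 and ZNRF3 remove Frizzled receptors from the cell surface, and R-spondins relieve that removal. By sequence the family falls into FZD5 with FZD8, FZD1 with FZD2 and FZD7, FZD4 with FZD9 and FZD10, and FZD3 with FZD6.

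The counts come from precision run-on sequencing (PRO-seq), which labels RNA in engaged polymerases and so reads ongoing transcription rather than stored mRNA. The cells were A549, an established human lung adenocarcinoma line, in 15 groups of 2 libraries, and all groups, untreated cells included, carry 0.01% DMSO in their labels. Dexamethasone (Dex), a synthetic glucocorticoid, was given at 100 nM for 15 min or 3 h. GSK591, which inhibits the arginine methyltransferase PRMT5, and MS023, which inhibits Type I arginine methyltransferases, were given at 1 µM for 2, 4 or 7 days. Some cultures received Dex (15 min or 3 h) at the end of the 7 days, and others inhibitor and Dex at once for 3 h. The untreated cells are labelled 15 min and served as the reference for every time. Nothing states that the 2 libraries of a group came from separate cultures, so p-values may measure technical spread only.

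Libraries held 8441211 to 13069598 counts, of which mitochondrial genes took 58.7% to 78.7%. That share was 73.4% to 76.0% in untreated cells and 58.7% to 59.6% after 7 days of MS023. All 10 epithelial and A549 markers examined were expressed, at 902 to 1774 CPM (counts scaled to a common library size by TMM) summed. Leukocyte markers summed to 0.815 to 5.90 CPM, with PTPRC and CD3E under 10 counts in every library, endothelial markers to 0.208 to 2.24 CPM, and fibroblast markers to 3.32 to 10.6 CPM, with DCN under 10 counts. The leukocyte marker CD14 averaged 2.55 CPM (up to 59 counts) and the fibroblast marker COL1A1 4.38 CPM (up to 105 counts). The epithelial markers CDH1 and EPCAM were as low, at 2.92 and 2.54 CPM. FKBP5, a textbook glucocorticoid target, checked the Dex labels, with 5.55 and 5.23 CPM in untreated cells and 40.4 and 39.9 CPM after 3 h of Dex (log2 fold change 2.90, adjusted p = 8.77e-08, edgeR's quasi-likelihood test with Benjamini-Hochberg adjustment). All adjusted p-values below come from that test over 22919 genes with a threshold of 0.05. In bulk libraries, fewer cells of a type and less RNA per cell cannot be told apart.

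Promoter sequence is shown for 3 members on which the results turn, as the 250 bases upstream of the RefSeq start (GRCh38.p14). FZD5 lies at chr2:207769907-207770156 on the minus strand, FZD8 at chr10:35642297-35642546 on the minus strand and FZD9 at chr7:73433528-73433777 on the plus strand. Each is printed 5′ to 3′ on the gene's own strand, and capitals mark matches to CCAAT (printed ATTGG where it lies on the other strand) and TATAAA.
FZD5: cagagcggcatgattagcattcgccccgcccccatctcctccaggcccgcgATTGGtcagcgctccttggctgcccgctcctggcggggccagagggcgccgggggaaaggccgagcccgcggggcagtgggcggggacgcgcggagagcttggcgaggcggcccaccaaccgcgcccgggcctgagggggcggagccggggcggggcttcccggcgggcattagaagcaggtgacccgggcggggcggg
FZD8: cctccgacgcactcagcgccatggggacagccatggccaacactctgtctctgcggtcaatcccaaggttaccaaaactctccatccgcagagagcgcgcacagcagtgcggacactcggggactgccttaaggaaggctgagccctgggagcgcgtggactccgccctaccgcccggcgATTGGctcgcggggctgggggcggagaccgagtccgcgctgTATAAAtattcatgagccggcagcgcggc
FZD9: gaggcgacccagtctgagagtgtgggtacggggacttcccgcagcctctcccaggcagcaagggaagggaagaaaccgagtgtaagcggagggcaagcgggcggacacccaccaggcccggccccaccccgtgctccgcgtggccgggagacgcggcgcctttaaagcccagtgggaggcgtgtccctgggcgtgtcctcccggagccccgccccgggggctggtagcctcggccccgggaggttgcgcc

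RefSeq promoters were matched for FZD1, FZD4, FZD5, FZD8 and FZD9. Each motif was searched on both strands. A CCAAT match stood 199 bases before the start in FZD5, 70 in FZD8, 75 in FZD4 and 91 in FZD1, and none in FZD9, while 32.0% of all 35116 RefSeq promoters of that length hold one. TATAAA occurred only in FZD8 among these, 29 bases before the start, against 10.7% of all promoters. GGGCGG, the GC box, occurred 6 times each in FZD5 and FZD4, 3 times in FZD8, 2 times in FZD9 and 1 time in FZD1, and 42.6% of all promoters hold it. AGAACA, a hexamer that the glucocorticoid receptor binds, was in none of these windows and is in 12.4% of all promoters. GC content was 76.8% in FZD5, 80.8% in FZD4, 72.4% in FZD9 and 65.2% in both FZD8 and FZD1, against a median of 58.0%. The RefSeq start of FZD5 lies 343 bp upstream of the GENCODE 29 start.

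Levels between genes were compared per kilobase of exon. In untreated cells FZD8 was highest at 11.1 and 12.3 CPM per kb, followed by FZD2 at 8.56 and 9.57. FZD5 had 2.03 and 2.40 CPM per kb, FZD7 2.10 and 2.11, FZD4 1.44 and 1.31, FZD9 1.42 and 1.20, and FZD1 1.13 and 1.43. FZD6 followed at 0.983 and 0.717 and FZD3 at 0.233 and 0.146 CPM per kb, and FZD10 had no count. The library ranges overlapped between FZD5 and FZD7, between FZD4 and FZD9 and between FZD9 and FZD1, so those neighbours were not separated by their spread. FZD8 and FZD2 thus led the family in this count table. The authors' deposited mean signals over all libraries, from another counting and not scaled by length, put FZD5 first at 241. FZD2 followed at 180, FZD7 at 153, FZD6 at 136, FZD8 at 135 and FZD3 at 122.

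**Figure D1:**
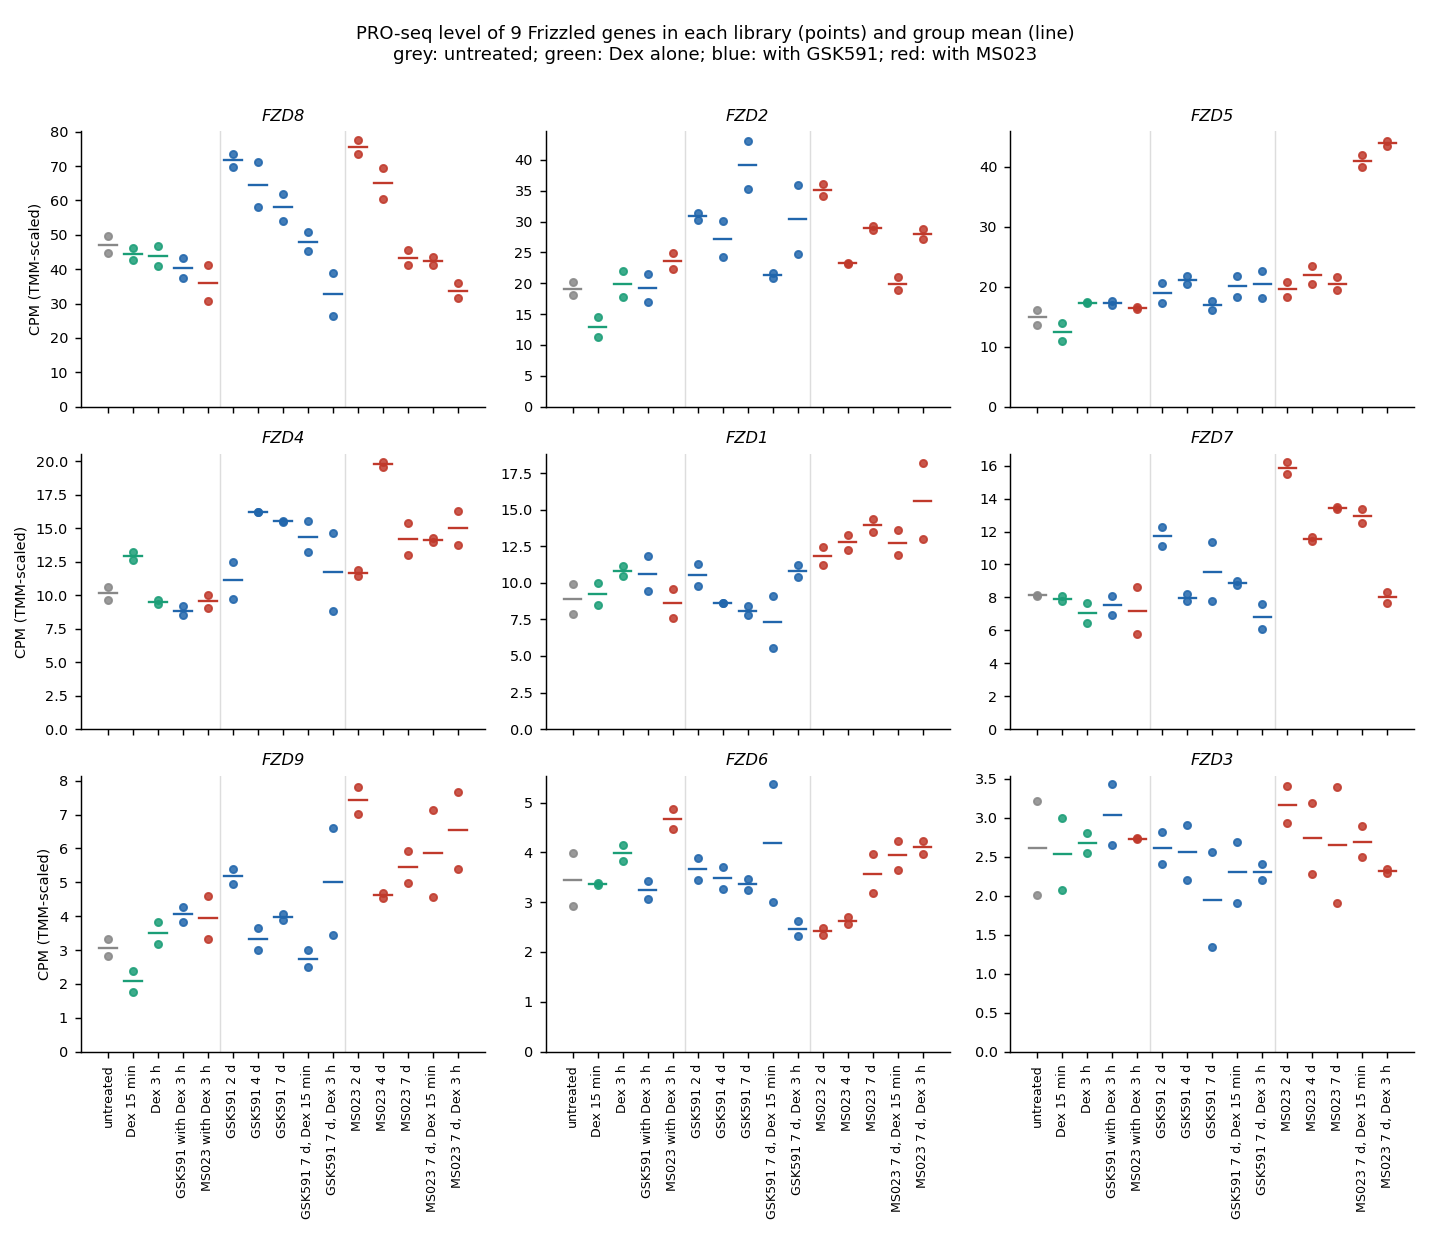
CPM (TMM-scaled, linear axis from 0) of 9 Frizzled genes in each of the 30 libraries, as points, with the mean of the 2 libraries of each group as a line; grey, untreated; green, Dex alone; blue, with GSK591; red, with MS023. FZD5 stands at 39.9 to 44.3 CPM in the 4 libraries given Dex after MS023 and at 23.5 CPM or less in all others, whereas FZD8 is highest after 2 days of either inhibitor.

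Across the treatments, prolonged inhibition of either enzyme class raised several Frizzled genes, and Dex alone called none. Over the 6 inhibitor comparisons, 19 of 48 member tests were called and all 19 were higher. With GSK591, 2 of 8 members rose at 2 days, 3 of 8 at 4 days and 2 of 8 at 7 days, where 3.18%, 8.88% and 6.68% of all genes tested rose. With MS023, 4 of 8 rose at 2 days, 3 of 8 at 4 days and 5 of 8 at 7 days, where 6.18%, 7.79% and 7.13% of all genes rose. The median log2 change of the 8 members was 0.38, 0.07 and 0.26 with GSK591 and 0.54, 0.48 and 0.54 with MS023 at 2, 4 and 7 days, beside medians of all genes between 0.00 and 0.01 in size. These comparisons share the 2 untreated libraries, so they are not independent of each other. Without untreated replicate 1 the count fell from 19 to 9 of 48. There 0.951%, 4.46% and 3.48% of all genes rose with GSK591 at 2, 4 and 7 days, and 2.54%, 3.62% and 3.43% with MS023. DESeq2 called 16, where 1.68%, 5.42% and 4.02% of all genes rose with GSK591 and 3.50%, 4.40% and 4.02% with MS023. The authors' deposited tables, made with another counting, called some of the 7 or 8 members with an adjusted p higher and others lower. At 2, 4 and 7 days of GSK591, 3, 0 and 2 were higher and 1, 2 and 0 lower. With MS023, 3, 1 and 2 were higher and 1, 0 and 0 lower. In either direction 14.7%, 26.8% and 23.8% of all genes were called there for GSK591, and 17.7%, 22.5% and 22.0% for MS023. The mitochondrial share of counts was lower in MS023 libraries than in untreated ones at each day, at 62.2% to 65.0% at 2 days and 64.9% to 66.1% at 4 days. It was 68.5% to 71.4%, 69.5% to 70.3% and 73.7% to 78.7% at 2, 4 and 7 days of GSK591, and its part in the result was not tested.

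**Figure D2:**
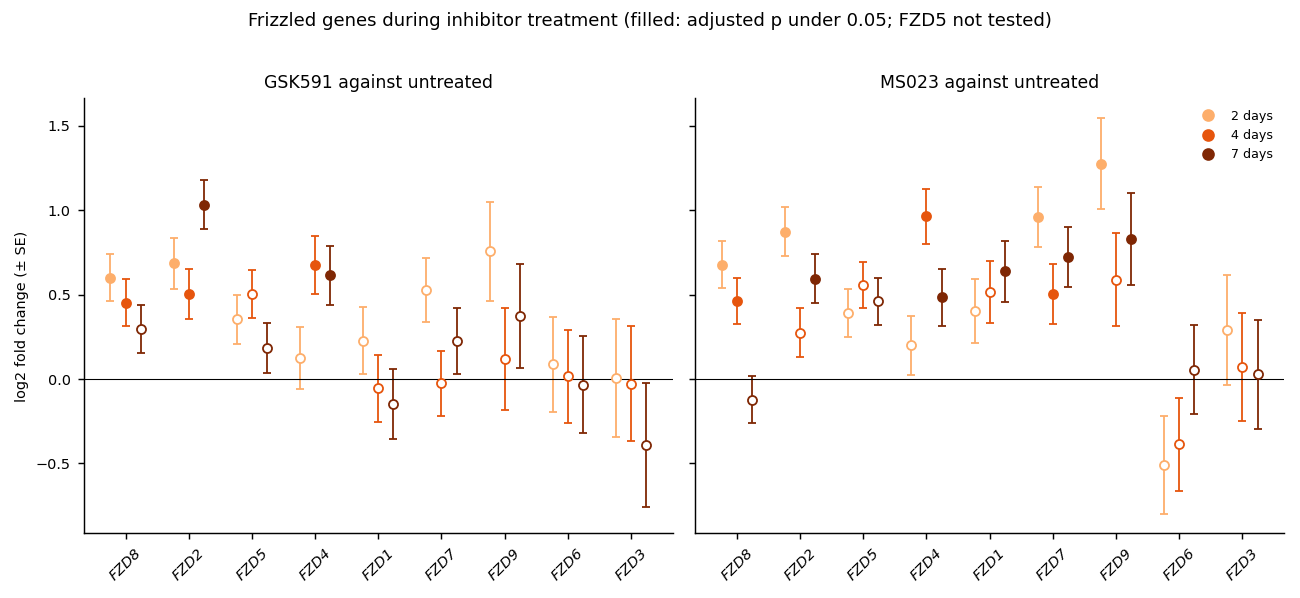
Log2 fold change against untreated cells with its standard error (vertical axis) for 9 Frizzled genes (horizontal axis) after 2, 4 and 7 days of GSK591 (left) or MS023 (right); filled points have an adjusted p under 0.05 and FZD5 was not tested. All 19 filled points lie above 0, and FZD3 and FZD6 have none.

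Summed over the family, the level was 118 ± 5.67 CPM (SD, n = 2) in untreated cells. It was 166, 155 and 157 CPM at 2, 4 and 7 days of GSK591 and 183, 164 and 146 CPM at the same days of MS023. Pooled over the 30 libraries, FZD8 supplied 35.5% of the family's CPM, FZD2 18.0% and FZD5 15.3%. The shares differed between groups, and after MS023 and 3 h of Dex FZD5 supplied 27.9%, FZD8 21.5% and FZD2 17.8%.

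After Dex alone, 0 of 8 members were called at 15 min and 0 of 8 at 3 h by edgeR's quasi-likelihood test, where 1.26% and 10.5% of all genes were called. Of these 16 tests, 2 had an unadjusted p under 0.05, and DESeq2 called 0. In simulated counts the 3 h test called 10.4% of genes changed by 0.5 and 56.7% of those changed by 1 on the log2 scale. Small responses could thus go uncalled. When Dex followed 7 days of inhibitor, the 4 calls among 32 tests were all lower. After GSK591, 1 of 8 members fell at 15 min and 1 of 8 at 3 h, where 1.02% and 4.45% of all genes fell. After MS023, 1 of 8 fell at 15 min and 1 of 8 at 3 h, where 0.846% and 5.37% of all genes fell. Under scaling by total counts none of the 4 was called, with log2 values from -0.84 to -0.58. That scaling also called fewer of all 22919 genes lower. After GSK591 these were 6 at 15 min and 263 at 3 h, against 234 and 1021 before. After MS023 they were 27 and 454, against 194 and 1231.

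The interaction test asked whether the Dex response differed between cells pretreated for 7 days and cells without inhibitor. It called 0 of 8 members in each of the 4 contrasts by edgeR and 0 by DESeq2, and 2 of 32 tests had an unadjusted p under 0.05. The share of all genes called was 0.00436% and 0.214% for GSK591 at 15 min and 3 h and 0.00436% and 0.223% for MS023. In simulated counts the interaction test for MS023 at 3 h called 0% of genes changed by 0.5 on the log2 scale. Of those changed by 1 it called 16.4%, so 0 calls here do not show that the responses were alike. When inhibitor and Dex were given together for 3 h, 0 of 8 members differed from Dex alone with either inhibitor by edgeR or by DESeq2, with 0 of 16 unadjusted p-values under 0.05, where 0.00% of all genes were called for GSK591 and 0.196% for MS023. Leaving out replicate 1 of MS023 with Dex gave 1 call, FZD8 at -0.51, in a fit that called 9.98% of all genes.

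**Figure D3:**
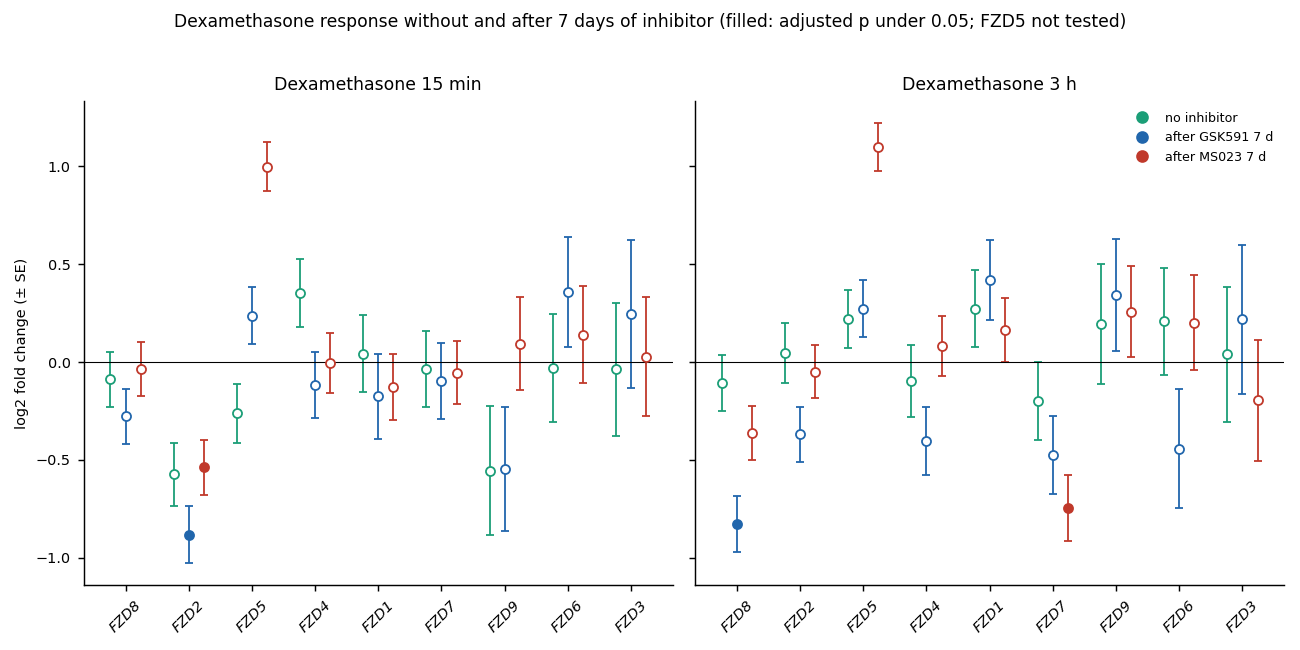
Log2 fold change after Dex with its standard error (vertical axis) for 9 Frizzled genes at 15 min (left) and 3 h (right), without inhibitor (green, against untreated), after 7 days of GSK591 (blue, against GSK591) and after 7 days of MS023 (red, against MS023); filled points have an adjusted p under 0.05 and FZD5 was not tested. FZD5 after MS023 stands at 1.00 and 1.10, while the 4 filled points of FZD2, FZD8 and FZD7 lie below 0.

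FZD5 (chr2:207762586-207769563, minus strand, hg38, 2 exons by GENCODE 29) is a receptor for canonical Wnt signals with roles in epithelial and eye development. In untreated cells it had 13.6 and 16.1 CPM, and after Dex 14.0 and 10.9 CPM at 15 min and 17.3 and 17.4 CPM at 3 h. After 7 days of MS023 it had 21.6 and 19.4 CPM, and when Dex followed, 39.9 and 41.9 CPM at 15 min and 43.5 and 44.3 CPM at 3 h. The 4 libraries with Dex after MS023 thus stood above the other 26, with no overlap.

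On the log2 scale the Dex difference of FZD5 after MS023 was 1.00 (SE 0.13, 2.00-fold) at 15 min and 1.10 (SE 0.12, 2.14-fold) at 3 h. Without inhibitor it was -0.26 (SE 0.15) and 0.22 (SE 0.15), and after GSK591 0.24 (SE 0.15) and 0.27 (SE 0.15). The MS023 response minus the response without inhibitor came to 1.26 (SE 0.20) at 15 min and 0.88 (SE 0.19) at 3 h. Over the fits that left out 1 library these ran from 1.09 to 1.45 and from 0.75 to 0.99. Under scaling by total counts the 15 min value was smaller, below its range here. FZD5 was chosen for this pattern, so the values describe it and no test is given.

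The level of FZD5 in cells that received Dex and MS023 together for 3 h was 16.6 and 16.2 CPM, and with GSK591 and Dex together 17.0 and 17.6 CPM. Neither stood apart from Dex alone for 3 h by more than 0.08 on the log2 scale. In cells with 7 days of GSK591 it was 17.6 and 16.2 CPM, and with Dex added 21.8 and 18.3 CPM at 15 min and 22.7 and 18.2 CPM at 3 h. The high level was therefore seen after a week of MS023 followed by Dex and in no other group.

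During inhibitor treatment alone FZD5 was moderately higher than in untreated cells. With GSK591 it had 17.3 and 20.6 CPM at 2 days and 21.7 and 20.4 CPM at 4 days. With MS023 it had 20.8 and 18.3 CPM at 2 days and 23.5 and 20.4 CPM at 4 days. All of these libraries stood above both untreated ones, with log2 differences of 0.35 and 0.50 for GSK591 and 0.39 and 0.56 for MS023 at 2 and 4 days. At 7 days the log2 differences were 0.18 and 0.46.

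In the authors' deposited table, made with another counting, FZD5 had log2 changes against untreated cells of 1.44 at 15 min and 1.75 at 3 h of Dex after MS023. For 7 days of MS023 alone that deposited table gives 0.59, for Dex alone -0.08 at 15 min and 0.06 at 3 h. Both sources derive from the same libraries, but the counting and the model differ. The sizes of their log2 changes are therefore not directly comparable.

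Of the 2 nearest tested genes on either side of FZD5 none was called for these comparisons. CCNYL1, whose end lies 747 bp away on the other strand, had 13.5 CPM after MS023 and 14.5 and 13.4 CPM on average with Dex at 15 min and 3 h. Its log2 differences were 0.10 and -0.01, those of METTL21A -0.24 and -0.07, those of IDH1 0.01 and -0.15, and those of PLEKHM3, 51725 bp away, 0.46 and 0.32.

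Across group means, the genes whose pattern was most like that of FZD5 were MEGF9 (Pearson r 0.92), SERINC5 (0.89) and RHOBTB3 (0.88), over 15 groups and 11098 genes with at least 5 CPM. The points share libraries and untreated controls, and these are descriptions without a test. Among the family, the members most like FZD5 were FZD1 and FZD9, both at r 0.65.

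FZD8 (chr10:35638249-35642278, minus strand, 1 exon), the close relative of FZD5, followed another course. It had 44.6 and 49.8 CPM in untreated cells, 73.5 and 69.9 CPM after 2 days of GSK591 and 77.6 and 73.6 CPM after 2 days of MS023. All 4 treated libraries lay above both untreated ones, with rises of 0.60 (SE 0.14, adjusted p = 0.00681, edgeR) and 0.68 (SE 0.14, adjusted p = 0.000908, edgeR). At 4 days it had 58.1 and 71.2 CPM with GSK591 and 60.6 and 69.5 CPM with MS023, still called (0.45 and 0.46).

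By 7 days FZD8 was no longer called with either inhibitor, at 54.1 and 62.0 CPM with GSK591 and 45.6 and 41.1 CPM with MS023 (log2 0.30 and -0.12). The former was called in the fit of the compared groups alone (0.31). With scaling by total counts, which moved the median of all genes to 1.02 for MS023 at 7 days, the latter was 0.89 and called. The MS023 libraries at 7 days overlapped the untreated range. The rise after 2 days of MS023 passed in every fit that left out 1 library. That after 2 days of GSK591 did not pass without untreated replicate 1 or GSK591 replicate 1 (0.53 to 0.57). The rises at 4 days did not pass without untreated replicate 1 or replicate 2 of the treated group (0.30 to 0.38 for GSK591, 0.36 to 0.39 for MS023). The authors' deposited table called FZD8 higher at 2 days of GSK591 and MS023 (0.51 and 0.48, adjusted p = 0.0114 and 0.0155). It did not at 4 days (0.35 and 0.33, adjusted p = 0.0880 and 0.101).

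When Dex followed GSK591, FZD8 had 50.7 and 45.2 CPM at 15 min and 39.0 and 26.3 CPM at 3 h. The 3 h fall against GSK591 alone was 0.83 on the log2 scale (SE 0.14, adjusted p = 8.05e-05, edgeR), with both libraries below both of GSK591 alone. After MS023 the 3 h libraries had 31.6 and 35.9 CPM, a difference of -0.36 that was not called (adjusted p = 0.0911, edgeR), although it was called without a filter on low counts (-0.38) and in the fit of the compared groups alone (-0.35). Dex alone gave 40.9 and 46.9 CPM at 3 h (-0.11).

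The difference between the FZD8 responses to Dex at 3 h with and without GSK591 was -0.72 (SE 0.20) and was not called (adjusted p = 0.144, edgeR). It was called without replicate 1 of GSK591 followed by Dex for 3 h (-1.03) and without a filter on low counts (-0.71). The 3 h fall after GSK591 ran from -1.14 to -0.57 when 1 library was left out, and it was not called with scaling by total counts (-0.58). In the authors' deposited table FZD8 was lower than in untreated cells after 3 h of Dex alone (-0.48, adjusted p = 0.0293), after GSK591 and Dex (-0.67, adjusted p = 0.00167) and after MS023 and Dex (-0.63, adjusted p = 0.00196).

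The pattern of FZD8 over the 15 groups was most like those of GEM (Pearson r 0.95), IFT27 (0.93) and LINC00602 (0.93) among 11098 genes. The exon of FZD8 also holds the microRNA gene MIR4683 on the same strand, so counts of that stretch may belong to either.

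FZD2 (chr17:44557459-44559570, plus strand, 1 exon) is a receptor of both canonical and non-canonical Wnt signals and is linked to epithelial migration. It had 18.1 and 20.2 CPM in untreated cells. After GSK591 it had 31.4 and 30.3 CPM at 2 days, 24.3 and 30.1 CPM at 4 days and 43.0 and 35.3 CPM at 7 days. All 6 libraries exceeded both untreated ones, and the rises were 0.68, 0.50 and 1.03 (adjusted p = 0.00303, 0.0129 and 8.92e-07, edgeR).

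MS023 gave FZD2 34.1 and 36.1 CPM at 2 days, 23.3 and 23.2 CPM at 4 days and 29.3 and 28.6 CPM at 7 days. The rises at 2 and 7 days were 0.87 and 0.59 (adjusted p = 2.92e-05 and 0.00313, edgeR), and the 4 day value of 0.28 was not called. The rises at 7 days of GSK591 and at 2 days of MS023 passed in every fit that left out 1 library. Without untreated replicate 1 those at 2 and 4 days of GSK591 and at 7 days of MS023 did not pass (0.61, 0.43 and 0.52), nor did that at 4 days of GSK591 without its replicate 2 (0.34). The authors' deposited table called FZD2 higher at 2 and 7 days of GSK591 and 2 days of MS023 (0.54, 0.68 and 0.83). It did not at 4 days of GSK591 (0.33, adjusted p = 0.0907) or 7 days of MS023 (0.33, adjusted p = 0.0837).

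Among the tested members, FZD2 alone was called at 15 min of Dex, after either inhibitor. With GSK591 for 7 days first, it went from 43.0 and 35.3 CPM to 20.9 and 21.7 CPM, a fall of 0.88 (SE 0.15, adjusted p = 0.000102, edgeR). With MS023 first, it went from 29.3 and 28.6 CPM to 18.9 and 21.0 CPM, a fall of 0.54 (SE 0.14, adjusted p = 0.0244, edgeR). Without inhibitor it was 14.5 and 11.3 CPM against 18.1 and 20.2 CPM in untreated cells, a difference of -0.57 (SE 0.16) whose adjusted p was 0.0574 by edgeR. In all 3 settings both libraries with Dex lay below both without it.

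The response of FZD2 to 15 min of Dex without inhibitor was called in the fit of the compared groups alone (-0.57) and without a filter on low counts (-0.57). It was -0.55 in the authors' deposited table, with an adjusted p of 0.0148. The difference between the responses with and without inhibitor was -0.31 (SE 0.22, adjusted p = 0.809, edgeR) for GSK591 and 0.04 (SE 0.21, adjusted p = 1.00, edgeR) for MS023. The fall after GSK591 passed in every fit that left out 1 library, from -1.01 to -0.73. That after MS023 passed in none of the 4 (-0.62 to -0.45) and was not called by DESeq2 (-0.53).

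By 3 h of Dex, FZD2 had 17.8 and 21.9 CPM without inhibitor and 27.2 and 28.8 CPM after MS023. These stood at 0.05 and -0.05 on the log2 scale against their references. After GSK591 the 3 h libraries had 35.9 and 24.8 CPM, at -0.37 (adjusted p = 0.0924, edgeR), and overlapped the GSK591 range. Without replicate 1 of GSK591 followed by Dex for 3 h the value was -0.66 and called. No libraries at 3 h without inhibitor or after MS023 fell below those at 15 min. The genes most like FZD2 over the 15 groups were C14orf93 and TFE3 (Pearson r 0.87 each) and MIR194-2HG (0.86).

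FZD7 (chr2:202034587-202038445, plus strand, 1 exon), known for its part in stem cell and epithelial Wnt signalling, had 8.10 and 8.14 CPM in untreated cells. With MS023 it had 16.2 and 15.5 CPM at 2 days, 11.4 and 11.7 CPM at 4 days and 13.4 and 13.5 CPM at 7 days. All 6 libraries exceeded the untreated ones, and the rises were 0.96, 0.51 and 0.72 (adjusted p = 0.000148, 0.0482 and 0.00307, edgeR). Those at 2 and 7 days passed in every fit that left out 1 library, and that at 4 days passed in none of the 4 (0.49 to 0.51), nor with DESeq2 (0.52) or without a filter on low counts (0.54).

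With GSK591, FZD7 had 11.1 and 12.3 CPM at 2 days (0.53, adjusted p = 0.0864, edgeR), 7.76 and 8.20 CPM at 4 days and 7.77 and 11.4 CPM at 7 days, and none was called. When Dex followed MS023, FZD7 had 12.5 and 13.4 CPM at 15 min but 8.33 and 7.66 CPM at 3 h. The 3 h fall was 0.75 (SE 0.17, adjusted p = 0.00119, edgeR) and left the 2 libraries on either side of the untreated ones. It passed in every fit that left out 1 library (-0.80 to -0.68), but not with scaling by total counts (-0.76).

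The FZD7 values after 3 h of Dex were 7.64 and 6.45 CPM without inhibitor (-0.20) and 7.59 and 6.06 CPM after GSK591 (-0.47, adjusted p = 0.138, edgeR). The last was -0.73 and called without replicate 1 of 7 days of GSK591. The MS023 response minus that without inhibitor was -0.55 (SE 0.26) and was not called (adjusted p = 0.528, edgeR). In the authors' deposited table FZD7 was higher than in untreated cells after MS023 at 2, 4 and 7 days (0.92, 0.62 and 0.82) and also after GSK591 at 2 and 7 days (0.62 and 0.46, adjusted p = 0.00209 and 0.0241).

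FZD1 (chr7:91264364-91271326, plus strand, 1 exon), a canonical Wnt receptor close to FZD2 and FZD7, had 7.88 and 9.95 CPM in untreated cells. With MS023 it had 11.2 and 12.4 CPM at 2 days, 12.3 and 13.3 CPM at 4 days and 14.3 and 13.5 CPM at 7 days. All 6 libraries lay above the untreated ones, but only the 7 day rise was called (0.64, SE 0.18, adjusted p = 0.0129, edgeR). The 2 and 4 day values were 0.40 and 0.51 (adjusted p = 0.179 and 0.0514, edgeR). The latter passed in the fit of the compared groups alone (0.52), with DESeq2 size factors (0.52) and without mitochondrial or ribosomal RNA genes (0.52). It also passed without a filter on low counts (0.55) and with scaling by total counts (1.25). That scaling moved the median of all genes to 0.74 for MS023 at 4 days and called 11161 of 22919 genes higher. The 7 day rise did not pass without untreated replicate 1 (0.48) or without MS023 replicate 1 (0.59). The authors' deposited table did not call FZD1 after 7 days of MS023 (0.48, adjusted p = 0.0918).

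With GSK591, FZD1 had 11.3 and 9.75 CPM at 2 days, 8.62 and 8.60 CPM at 4 days and 7.77 and 8.42 CPM at 7 days, and each time overlapped the untreated libraries. Its highest library, at 18.2 CPM, was in Dex for 3 h after MS023, where the other had 13.0 CPM and the difference from MS023 alone was 0.16. Dex called FZD1 in none of the 3 settings.

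FZD4 (chr11:86945679-86955391, minus strand, 2 exons) is the receptor for Norrin as well as Wnt ligands and is known from retinal vessel growth. It had 10.7 and 9.65 CPM in untreated cells. With GSK591 it had 12.5 and 9.75 CPM at 2 days, 16.2 and 16.2 CPM at 4 days and 15.5 and 15.5 CPM at 7 days. The rises at 4 and 7 days were 0.68 and 0.61 (adjusted p = 0.00316 and 0.0121, edgeR), while the 2 day libraries overlapped the untreated ones.

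With MS023, FZD4 had 11.4 and 11.9 CPM at 2 days, 20.0 and 19.6 CPM at 4 days and 13.0 and 15.4 CPM at 7 days. Its highest group was thus 4 days of MS023 (0.96, SE 0.16, adjusted p = 1.99e-05, edgeR), which passed in every fit that left out 1 library. The 7 day rise was 0.48 (adjusted p = 0.0433, edgeR). It did not pass without either untreated library or MS023 replicate 2 (0.36 to 0.56), or with DESeq2 (0.50). With GSK591 the 4 day rise did not pass without untreated replicate 2 (0.60). The 7 day rise did not pass without that library or either GSK591 library (0.54 to 0.62), or with scaling by total counts (0.59).

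FZD4 shares 1399 of its 7383 exonic bases with PRSS23 on the opposite strand, and whether the counting used strand is not given in the sources used here. PRSS23, a secreted serine protease gene, fell by 0.90 after 3 h of Dex, by 1.34 after GSK591 and Dex, and by 1.18 after MS023 and Dex. FZD4 stood at -0.10, -0.40 and 0.08 in those comparisons and was called in none. Without replicate 1 of GSK591 followed by Dex for 3 h, its value after GSK591 was -0.82 and called. PRSS23 was called in none of the 6 inhibitor comparisons against untreated cells in which FZD4 was tested. It had 27.8 and 28.3 CPM after 7 days of GSK591, above the 22.1 and 22.3 CPM of untreated cells. In the other inhibitor comparisons both of its libraries lay below both untreated ones. How far the shared bases carried FZD4 counts was not tested. In the authors' deposited table FZD4 stood at -0.25 (adjusted p = 0.383) after 4 days and 0.0013 (adjusted p = 0.997) after 7 days of GSK591, where the counts gave calls. After MS023 the authors' deposited table gives it 0.44 (adjusted p = 0.154) at 4 days and 0.99 (adjusted p = 0.0125) at 7 days. Its mean signal there was 0.215 times that of the count table.

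FZD9 (chr7:73433783-73436120, plus strand, 1 exon), which lies in the region deleted in Williams syndrome, had 3.33 and 2.81 CPM in untreated cells. With MS023 it had 7.02 and 7.83 CPM at 2 days, 4.54 and 4.69 CPM at 4 days and 5.94 and 4.98 CPM at 7 days. All 6 libraries exceeded the untreated ones. Its 2 day rise of 1.28 (SE 0.27, 2.42-fold, adjusted p = 0.000916, edgeR) had the largest log2 value among the 19 calls of the time course, and it passed in every fit that left out 1 library. The authors' deposited table did not call FZD9 there (0.22, adjusted p = 0.147), nor after 7 days of MS023 (0.19, adjusted p = 0.363). The deposited SEs of 0.37 and 0.36 exceed both log2 values. These values may have been shrunk toward 0, which was not tested, so their sizes are not directly comparable with those from the counts.

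The 7 day rise of FZD9 was 0.83 (adjusted p = 0.032, edgeR), but it passed in none of the 4 fits that left out 1 library (0.70 to 0.95) and not with DESeq2 (0.85). With GSK591 it had 4.96 and 5.39 CPM at 2 days (0.76, adjusted p = 0.12, edgeR), 3.64 and 3.00 CPM at 4 days and 4.06 and 3.88 CPM at 7 days. After 15 min of Dex alone it had 1.77 and 2.39 CPM, both below the untreated libraries but not called (-0.55, adjusted p = 0.798, edgeR). Counts of FZD9 ran from 18 to 104 per library.

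FZD6 and FZD3, which act mainly in planar cell polarity, were called in no comparison. FZD6 (chr8:103298433-103332866, plus strand, 9 exons) had 21 to 58 counts per library and FZD3 (chr8:28494205-28574268, plus strand, 8 exons) 10 to 47. FZD6 had 3.99 and 2.92 CPM in untreated cells and 2.34 and 2.49 CPM after 2 days of MS023, below both, at -0.51 (SE 0.29, adjusted p = 0.285, edgeR). FZD3 had 3.22 and 2.01 CPM in untreated cells, and its group means ran from 1.94 CPM after 7 days of GSK591 to 3.17 CPM after 2 days of MS023.

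Exons make up 11.8% of FZD6 and 17.2% of FZD3, and the authors' mean signal was 3.72 and 4.46 times the mean of the count table, against 0.215 to 1.49 times in FZD1, FZD2, FZD4, FZD5, FZD7, FZD8 and FZD9. In the authors' deposited table FZD6 was lower than in untreated cells after 3 h of Dex (-0.61, adjusted p = 0.00461), 2 and 4 days of GSK591 (-0.53 and -0.51) and 2 days of MS023 (-0.64, adjusted p = 0.00274). The counts gave 0.21, 0.09, 0.02 and -0.51 for these. FZD3 was lower in the authors' deposited table after 4 days of GSK591 (-0.43, adjusted p = 0.0465). In the count table it had 2.20 and 2.90 CPM there, against 3.22 and 2.01 CPM in untreated cells.

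GSK591 and MS023, inhibitors of different enzyme classes, were compared at the same dose and day in 24 tests. At 2 and 4 days 0 of 8 members differed by edgeR's quasi-likelihood test, where 2.66% and 6.03% of all genes did, with 3 and 2 unadjusted p-values under 0.05 and no call by DESeq2. The nearest at 4 days were FZD1 (-0.57, adjusted p = 0.0513, edgeR) and FZD7 (-0.53, adjusted p = 0.0625, edgeR), both higher with MS023. Both were called in the fit of the compared groups alone (-0.57 and -0.53), and FZD1 also without a filter on low counts (-0.60). At 7 days 3 of 8 differed, where 9.37% of all genes did.

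FZD1 was lower with GSK591 than with MS023 at 7 days (-0.78, SE 0.19, adjusted p = 0.00423, edgeR), with no overlap of libraries. FZD2 and FZD8 were higher with GSK591 (0.44 and 0.42, adjusted p = 0.0335 and 0.0494, edgeR), but turned to -0.59 and -0.63 under scaling by total counts, which moved the median of all genes to -1.07. FZD1 stood at -1.83 there, but a downward shift of all genes could not have turned its negative value. Without GSK591 replicate 1 none of the 3 passed (-0.72 for FZD1, 0.29 for FZD2 and 0.52 for FZD8). FZD2 also did not pass without either MS023 library (0.43 to 0.46), and FZD8 passed in none of the 4 fits that left out 1 library (0.32 to 0.52). DESeq2 called FZD1 alone, and neither FZD2 nor FZD8 passed without a filter on low counts (0.39 and 0.36). In the fit of the compared groups alone, 6 of 24 tests were called, where 4.66%, 10.7% and 13.3% of all genes were called at 2, 4 and 7 days. FZD7 at 7 days (-0.50, adjusted p = 0.0642, edgeR) was called there (-0.49) and without GSK591 replicate 2 (-0.79).

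The wider Wnt pathway was read from 9 lists of 107 genes, of which 106 had an entry (WNT3 was not analysed here) and 86 were tested. After 3 h of Dex 9 of the 86 rose and 4 fell, where 6.09% and 4.42% of all genes did. After 7 days of GSK591 11 rose and 1 fell, beside 6.68% and 6.51% of all genes, and after 7 days of MS023 16 rose and 2 fell, beside 7.13% and 6.52%. Their median log2 change was 0.14, 0.17 and 0.14, beside -0.01, -0.00 and 0.01 for all genes. Among β-catenin feedback targets, 5 of 10 rose and 1 fell after 7 days of MS023, with a median of 1.26, and 3 of 10 rose after GSK591, with a median of 0.62. In each of these comparisons, every fit that left out 1 library called fewer of the list genes. The share of all genes called also changed between fits, so the smaller counts are not a result about these lists alone. These lists were chosen with results of the same libraries known and are not independent evidence.

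AXIN2, a negative regulator that β-catenin itself induces, had 1.89 and 1.81 CPM in untreated cells. With MS023 it had 11.0 and 9.21 CPM at 2 days, 11.5 and 11.8 CPM at 4 days and 11.7 and 11.5 CPM at 7 days, rises of 2.44, 2.65 and 2.64. With GSK591 it had 5.63 and 4.36, 5.46 and 4.50, and 4.18 and 4.81 CPM at those days, rises of 1.42, 1.43 and 1.27 (highest adjusted p of the 6 = 0.00439, edgeR). The MS023 libraries stood above all GSK591 ones, and the difference was called at each day (-1.02, -1.22 and -1.37). After 3 h of Dex, AXIN2 in MS023 cells went to 5.19 and 7.51 CPM, a fall of 0.86 (adjusted p = 0.00272, edgeR), which did not pass without replicate 1 of that group (-0.62). Without inhibitor the AXIN2 difference after 3 h of Dex was -0.84 (adjusted p = 0.225, edgeR), and after GSK591 it was -0.54 (adjusted p = 0.292, edgeR). The MS023 response minus that without inhibitor was -0.02 (adjusted p = 0.997, edgeR). The GSK591 rise at 2 days did not pass without untreated replicate 2 or GSK591 replicate 1 (1.23 to 1.39), and that at 7 days without untreated replicate 2 or GSK591 replicate 2 (1.17 to 1.24). The difference between inhibitors at 2 days did not pass without GSK591 replicate 2 or MS023 replicate 1 (-0.89 to -0.84).

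**Figure D4:**
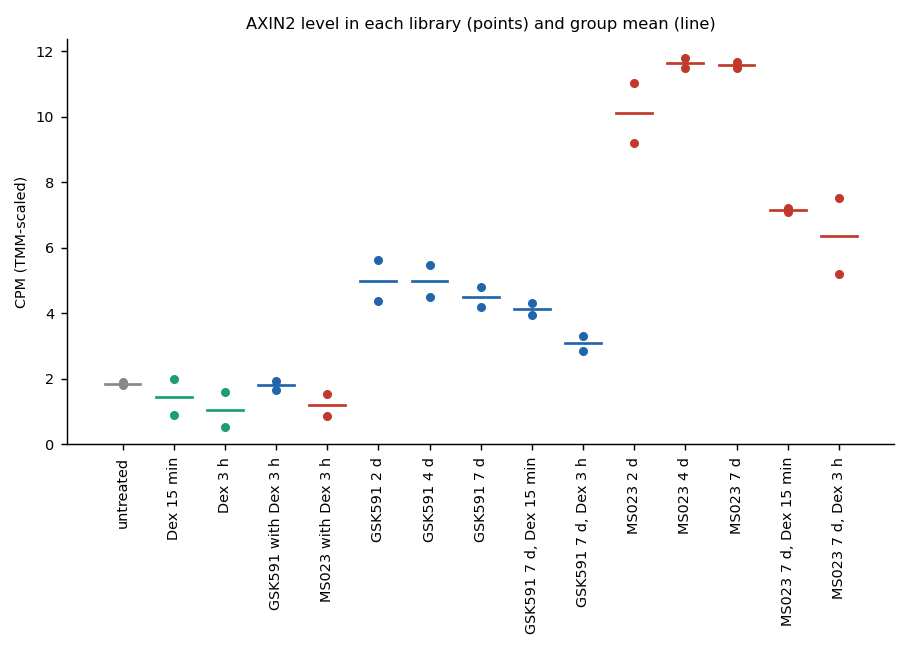
CPM (TMM-scaled, linear axis from 0) of AXIN2 in each of the 30 libraries as points, with the mean of each group as a line; grey, untreated; green, Dex alone; blue, with GSK591; red, with MS023. The 6 libraries with MS023 alone stand at 9.21 to 11.8 CPM, above the 6 with GSK591 alone at 4.18 to 5.63 CPM and the untreated ones at 1.81 and 1.89 CPM.

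The called changes of receptor partners were smaller than those of AXIN2 in the same comparisons. CTNNB1, which encodes β-catenin, was called in no comparison. LRP5 rose by 0.73 after 4 days of GSK591 and by 0.54 after 4 days of MS023, and LRP6 by 0.50 after 4 days of GSK591. RNF43 and ZNRF3 rose after 2 days of MS023 (1.07 and 0.60). LRP5 with GSK591 did not pass without untreated replicate 2 (0.66), and the other 4 calls passed in none of the fits that left out 1 library (LRP5 with MS023 0.47 to 0.61, LRP6 0.48 to 0.53, RNF43 1.03 to 1.11, ZNRF3 0.54 to 0.65).

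Among the genes named by the rule, those that passed in every fit that left out 1 library after 7 days of MS023 were AXIN2 (2.64), SFRP4 (1.52), a secreted Frizzled-like Wnt binder, FRAT1 (1.09), which restrains GSK3, the corepressors TLE3 (0.69) and TLE1 (0.57), the R-spondin receptor LGR4 (0.62) and, lower, the ligand WNT7B (-0.79, but 0.23 with scaling by total counts). The ligand WNT8B (1.24), PTK7 (1.24) and NKD1 (1.47) did not pass without untreated replicate 1 (0.97, 1.11 and 1.12). NKD2 (1.06) did not pass without untreated replicate 1 or MS023 replicate 2 (0.82 to 0.93). PRICKLE2 (0.86), CELSR1 (0.40) and DKK1 (-0.33, but 0.68 with scaling by total counts) did not pass without those or untreated replicate 2 (0.79 to 0.93, 0.34 to 0.40 and -0.39 to -0.16). TLE4 (0.53) passed in none of the 4 (0.41 to 0.67). Scaling by total counts moved the median of all genes to 1.02 for MS023 at 7 days, above the values of WNT7B and DKK1 there.

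After 7 days of GSK591, WNT7B again fell (-0.69) and passed in every such fit. DKK1, a secreted inhibitor, rose by 0.48 but not without untreated replicate 1 (0.42). SFRP4 (0.65) did not pass without untreated replicate 1 or GSK591 replicate 2 (0.52 to 0.54), PRICKLE1 (1.34) without untreated replicate 2 or GSK591 replicate 2 (1.14 to 1.21), and TCF7L1 (0.66) without untreated replicate 2 or GSK591 replicate 1 (0.32 to 0.51). DKK3 (0.72) and PRICKLE2 (0.75) did not pass without either untreated library or GSK591 replicate 2 (0.62 to 0.73 and 0.54 to 0.83), nor WNT3A (1.08) without untreated replicate 2 or either GSK591 library (0.82 to 1.13). CSNK1E (0.53) and FRAT1 (0.50) passed in none of the 4 (0.45 to 0.61 and 0.41 to 0.57).

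After 3 h of Dex, TLE3 (1.01), DKK3 (0.96), FRAT1 (0.78), the Dishevelled gene DVL2 (0.74) and DKK1 (0.52) rose and passed in every fit that left out 1 library. WNT11 rose by 1.46 but did not pass without untreated replicate 1 (1.27). WNT9A (1.11) did not pass without that library or Dex replicate 2 (0.92 to 0.93), nor BTRC (-1.06) without that library or Dex replicate 1 (-0.98 to -0.85). PYGO2 (0.53) did not pass without untreated replicate 2 or Dex replicate 2 (0.40 to 0.49), nor SFRP4 (-0.98) without untreated replicate 2 or Dex replicate 1 (-0.86 to -0.81). RSPO3 (-0.85) and WNT7B (-0.46) did not pass without untreated replicate 1 or either Dex library (-0.89 to -0.70 and -0.51 to -0.41).

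The authors' deposited tables called far more genes than the counts did, so their Frizzled calls stand beside larger backgrounds. Of the authors' deposited table, 3.93% of all genes with an adjusted p were called after 15 min of Dex and 21.9% after 3 h. For GSK591 at 2, 4 and 7 days the authors' deposited table gives 14.7%, 26.8% and 23.8%, and for MS023 17.7%, 22.5% and 22.0%. For Dex at 3 h after GSK591 and after MS023, each against untreated cells, the authors' deposited table gives 34.2% and 30.0%.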

How the data were processed

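PRO-seq gene counts of 30 A549 libraries were used as the authors deposited them. Per the submitters' processing notes, counting used featureCounts 2.0.1 of Subread on hg38. The aligner, annotation, strand use and counted feature type are not given in the sources used here. Its values are whole-number, unnormalised counts per gene, as deposited. The authors' deposited comparison tables, with DESeq2 columns per the file headers, hold their mean normalised signal, log2 fold changes and p-values, which come from another counting than the count table. Loci and exonic lengths are from GENCODE 29, whose identifiers all matched.

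Counts were tested with edgeR 4.0.16 (R 4.3.3, limma 3.58.1; quasi-likelihood, robust, TMM scaling, filterByExpr with minimum count 10 and total 15). 1 model covered the 15 groups (15 residual degrees of freedom, no covariates). Benjamini-Hochberg adjustment ran over 22919 genes in each of 21 comparisons. An interaction is the Dex response after inhibitor minus that without it. Standard errors, n = 2 per group, rest on the spread shared over groups. The procedure was tested on simulated data. Counts carry no molecular identifiers in the labels, so depth covers counting error only.

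The members and lists were chosen with earlier results of these data known. All 10 Frizzled genes were named, LRP5, LRP6, RNF43, ZNRF3, CTNNB1, AXIN2 and FKBP5 always, and from each pathway list up to 3 called genes with the largest change among those with a mean of at least 2 CPM, for Dex at 3 h and each inhibitor at 7 days. PRSS23 and the neighbours of FZD5 were chosen after values were seen. The alternatives were DESeq2 1.42.0, DESeq2 size factors, total-count scaling, no filter (53080 genes), the compared groups alone, no mitochondrial or ribosomal RNA genes, a block for the replicate number, and dropping each library in turn.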

Additional observations from a re-analysis of the deposited data

How the results depend on the processing

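Of the 26 Frizzled calls, 16 passed under every alternative other than leaving out a library, 10 in every fit that left out 1 library, and 7 in both. DESeq2 size factors, the compared groups alone and the fit without mitochondrial or ribosomal RNA genes kept all 26. DESeq2 lost 6. Scaling by total counts moved the median of all genes by up to 1.07 in size (-1.07 for GSK591 against MS023 at 7 days, 1.02 for MS023 at 7 days). It reversed FZD2 (-0.59) and FZD8 (-0.63) in the former and WNT7B (0.23) and DKK1 (0.68) in the latter. Under it the calls numbered 0 for Dex after inhibitor (4 otherwise), 11 for GSK591 against MS023 (3 otherwise), and 8, 2 and 79 pathway genes for Dex at 3 h, GSK591 and MS023 at 7 days (13, 12 and 18 otherwise), where 4.88%, 5.93% and 69.8% of all genes were called for GSK591 against MS023 at 2, 4 and 7 days, and 5.53%, 4.98% and 70.5% for the latter 3. For Dex after inhibitor it called 6 and 263 of all genes lower at 15 min and 3 h after GSK591, and 27 and 454 after MS023. Under the same scaling FZD5 stood at 0.85 at 15 min of Dex after MS023, and its interaction at 0.80. DESeq2 gave 1 call for GSK591 against MS023 and 6 pathway genes for GSK591. The compared groups alone gave 1 call for Dex against untreated and 6 for GSK591 against MS023, and no filter gave 1 call each for Dex against untreated and the interaction. Leaving out 1 library gave 9 to 19 calls in the time course, 3 to 6 for Dex after inhibitor, 0 to 1 for the interaction and for Dex with inhibitor, 0 to 3 for GSK591 against MS023, and 7 to 11, 3 to 7 and 8 to 17 pathway genes. For FZD5 it gave 0.93 to 1.09 and 1.03 to 1.18 for Dex after MS023, and 1.09 to 1.45 and 0.75 to 0.99 for the interaction. Replicate numbers showed no pairing common to all groups: deviations correlated from -0.46 to 0.50 with a median of 0.02 over 105 pairs of groups. Of these pairs 23 were above 0.1, and pairing within some of the groups was not tested. With the replicate block FZD8 in GSK591 against MS023 at 7 days was not called (0.42, adjusted p = 0.0604, edgeR), the other 25 Frizzled calls passed. The cause of these differences was not tested. The share of all genes called also changed between fits, as from 9.37% to 69.8% for GSK591 against MS023 at 7 days under total counts. A count of calls given without that share therefore cannot be read as a result about these genes alone. FZD3, FZD6 and FZD9 had under 105 counts in every library.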
